A study of Mus musculus with 72 samples.

Results

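The genes described here encode the protein part of the cytosolic ribosome. They were taken by gene symbol (Rpl or Rps followed by a digit, Rplp0 to Rplp2, and Rpsa), and 17 rows of the same form that carry pseudogene names or belong to the S6 kinases were dropped. This left 88 of the 24883 rows of the tables. Of these, 31 encode proteins of the small (40S) subunit, 43 proteins of the large (60S) subunit and 3 the acidic stalk of the 60S subunit. A further 8 are paralogues, 2 are retrotransposed copies (Rps27rt and Rpl37rt), and Rps19bp1 encodes a protein that binds Rps19 and is not itself a ribosomal protein. No measured value entered this list, but the family was chosen by its limma differences between light schedules and diets in these same libraries, which were already known. The counts and medians below are therefore a description of the family and not independent support for its direction.

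The libraries come from the suprachiasmatic nucleus (SCN), the hypothalamic centre that receives light signals and sets daily rhythms. Male C57BL/6 mice aged 8 weeks, of no altered genotype, were housed singly for 1 week under 12 h of light a day (LD) or in constant darkness (DD), and then ate a tryptophan-free diet (-Trp) or a nitrogen-matched control diet (Ctrl) at will for 2 weeks in the same light. Each of the 4 groups, named by diet and light as in Ctrl LD or -Trp DD, had 18 libraries, 3 from different mice at each of 0, 4, 8, 12, 16 and 20 h. Expression was given as FPKM, fragments scaled by transcript length and sequencing yield, so levels can be compared between genes on a scale per length. The read depth of the libraries is unknown, and no counting error can be given. The SCN neuropeptide genes Avp and Vip were above 0 in all 72 libraries but varied widely. Avp ran from 18.5 to 991 FPKM and Vip from 0.493 to 52.0 FPKM.

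A ribosome holds 1 copy of nearly every one of these proteins, and the members are therefore made in near-equal amounts of protein. The 40S subunit reads the mRNA, the 60S subunit joins amino acids, and the stalk proteins P0, P1 and P2 bring in the elongation factors. Most ribosomal protein mRNAs begin with a run of pyrimidines, the terminal oligopyrimidine (TOP) motif, through which the kinase mTORC1 adjusts their translation to the supply of amino acids. In the SCN, light is known to act on mTORC1 and on its target, the 40S protein S6.

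The names of the deposited columns and the values that accompany the paper place the libraries in different groups. Each of the 36 control columns printed with the paper equalled 1 deposited column in 100% of 124 to 1939 genes, and no other column in more than 0.806% of them. Every match carried the other light schedule in its name, and many the other diet. Ctrl LD at 0 h matched the column named Ctrl DD at 16 h, and Ctrl LD at 8 h that named -Trp DD at 0 h. Ctrl DD at 0 h matched the column named Ctrl LD at 16 h. With the light schedules exchanged, and -Trp set after Ctrl within each schedule, the matches are shifted by 12 columns. The 36 -Trp columns were placed by continuing that shift. Results are given first in this matched order and then with the columns as named, because the values alone do not tell which order holds.

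The annotated start sites of the members were searched for a pyrimidine run. RefSeq promoters on GRCm38.p6 were matched for 67 members. In 14 of them (20.9%) the annotated start was a C followed by at least 4 further pyrimidines, against 3.01% of 27025 symbols, and in the other matched members it was not. These starts are annotated positions and were not measured in the SCN. The following 30-base windows (15 bases before the start and 15 from it on, 5′ to 3′) belong to members that have the run and that the results turn on. The pyrimidine run from the start is in capitals.
Rplp2, chr7:141447636-141447665 (+): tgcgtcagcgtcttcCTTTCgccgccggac
Rps10, chr17:27635230-27635259 (-): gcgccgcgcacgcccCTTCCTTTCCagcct
Rps15a, chr7:118116133-118116162 (-): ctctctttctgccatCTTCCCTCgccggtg
Rps6, chr4:86857353-86857382 (-): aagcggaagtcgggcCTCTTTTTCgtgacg
Rpl15, chr14:18270972-18271001 (-): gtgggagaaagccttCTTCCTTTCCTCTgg
Rps27, chr3:90213634-90213663 (-): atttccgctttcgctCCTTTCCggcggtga
Rps27rt, chr9:114982725-114982754 (-): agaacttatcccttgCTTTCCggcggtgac
Rpl15 had the longest run of the 14, at 13 bases, and Rplp2 and Rps21 the shortest, at 5. On either strand of the 300 bases around the start (250 before and 50 after), CCGGAAG, the core of the ETS and GABP site, was found in 26 of the 67 members (38.8%) and in 9.93% of all symbols. AAGATGG, part of the YY1 motif, was found in 10 (14.9%) and 7.28%, and TATAA in 18 (26.9%) and 28.0%. A match describes the letters of the window and is not a measured binding site.

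The members were among the most abundant transcripts of the SCN. A mean of at least 100 FPKM was reached by 76 of the 88 members (86.4%) but by 2.77% of all rows. Over the 77 genes of the 40S, the 60S and the stalk, the median of the mean levels was 506 FPKM. Rps29 (chr12:69157722-69159186, GRCm38, GENCODE M21), a short 40S protein, stood highest at 2032 FPKM, Rps27rt followed at 1674 FPKM, and Rpl41, the smallest protein of the ribosome, came next at 1499 FPKM. The median was 513 FPKM for the 31 genes of the 40S and 475 FPKM for the 43 genes of the 60S. In the stalk, Rplp1 reached 1171 FPKM, Rplp2 672 FPKM and Rplp0 179 FPKM. Of the 77 genes, 73 were above 100 FPKM.

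**Figure D1:**
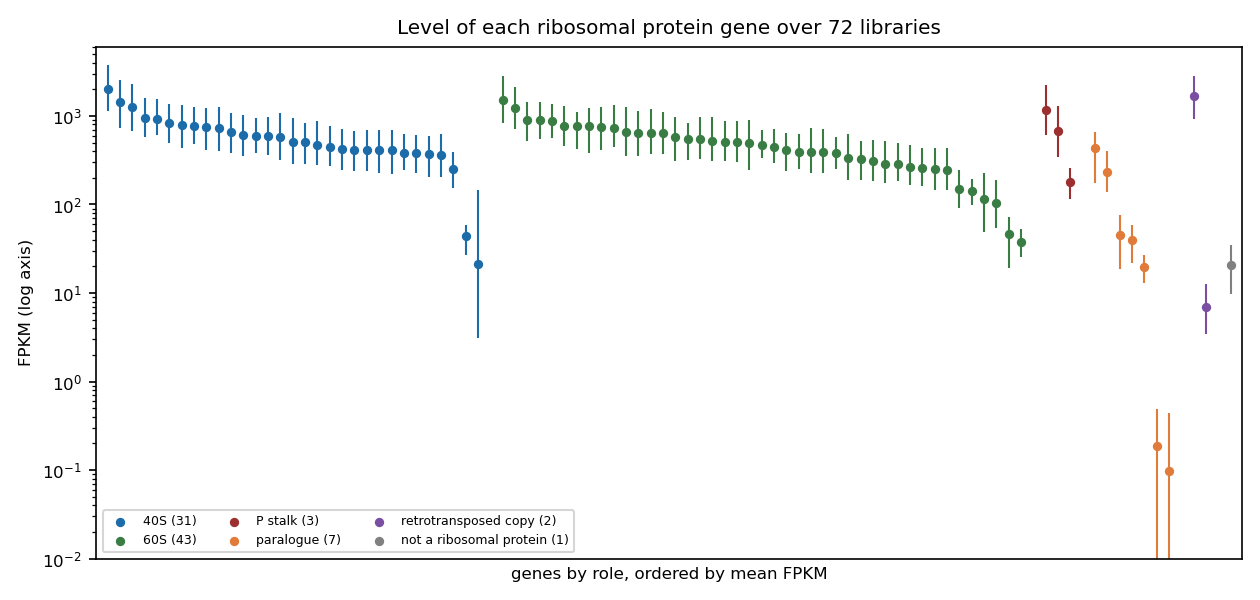
Mean FPKM of each member over 72 libraries (points, log axis), with lines from the lowest to the highest library, grouped by role and ordered by mean within it. Lines that reach the lower edge include libraries at 0, and Rpl10l, at 0 in all libraries, is not drawn. Rps29, Rps27rt and Rpl41 stand highest at 2032, 1674 and 1499 FPKM, and Rps27 has the widest line of the 40S genes, from 3.07 to 146 FPKM.

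The lowest gene of the 3 classes was Rps27, a 40S protein with a zinc finger, which ran from 3.07 FPKM to 146 FPKM. Its retrotransposed copy Rps27rt (chr9:114982366-114982739) and the spliced gene Rps27 (chr3:90212522-90213651) share their sequence: an Rps27 transcript of 345 bases and the Rps27rt transcript of 374 bases were equal over 341 of 341 aligned bases. The level of Rps27 split into separate ranges, with 51 libraries at or below 13.7 FPKM and 21 at or above 30.9 FPKM. The libraries of the upper range numbered 4 on Ctrl and 6 on -Trp in LD, and 3 on Ctrl and 8 on -Trp in DD. How reads were divided between both loci is not known, so the separate values of Rps27 and Rps27rt are uncertain. More widely, 79 members share at least 1 stretch of 100 bases with another annotated gene, and 17 share 50% or more of such stretches. Rps6, the target of the S6 kinases, shares 83.6% and Rpl13 shares 78.9%. Among the 9 members with no shared stretch are Rps21 and Rps3.

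Paralogues differed widely from their parent genes. Rpl22l1, at 436 FPKM, exceeded Rpl22, at 37.5 FPKM. Rpl36al reached 233 FPKM beside 386 FPKM for Rpl36a, and Rpl7l1 19.9 FPKM beside 443 FPKM for Rpl7. Rps4l stood at 45.5 FPKM and X-linked Rps4x at 449.6 FPKM, whereas Rps27l, at 40.03 FPKM, had a higher mean than Rps27. The paralogues known from testis and striated muscle were near the floor: Rpl10l was listed at 0 in all libraries, Rpl39l averaged 0.0984 FPKM and Rpl3l 0.188 FPKM. These 3 did not pass the filter (a mean of 0.5 FPKM), which left 85 of the 88 members for the tests.

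The members rose and fell together from library to library. Pearson's r between a member and the mean of the other members, on the log2 scale over 72 libraries, had a median of 0.979. After the mean of each group and time point was subtracted the median was still 0.913, and 82 of 85 members were above 0.5, against a median of 0.017 over 14340 rows. Rps27 was lowest at -0.084, followed by Rps4l at 0.33 and Rpl26 at 0.38. The 5 non-members whose levels over 72 libraries were most like the family mean were Gm15772 (r = 0.991), Pfdn5 (0.989), Eif3k (0.987), Cox7a2l (0.986) and Eef1b2 (0.986). Pfdn5 encodes a prefoldin subunit, Eif3k an initiation factor subunit and Eef1b2 an elongation factor subunit. Gm15772 is annotated as a processed pseudogene, and RefSeq gives it the synonym Rpl26. It was listed at 1013 FPKM, whereas Rpl26 itself stood at 115 FPKM. All of these points share libraries and scaling, so the coefficients are a description.

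In the matched order, the family was higher in LD than in DD on each diet. The family level, the mean over 85 members of the log2 deviation from each member's mean, was 0.32 ± 0.16 (SD, n = 18) on Ctrl and 0.34 ± 0.16 on -Trp in LD. In DD it was -0.43 ± 0.12 on Ctrl and -0.23 ± 0.17 on -Trp. The members together made up 10.5% to 14.7% of the FPKM of an LD library and 8.69% to 12.3% of that of a DD library. Their sum ran from 44869 to 77033 FPKM in LD and from 27794 to 48351 FPKM in DD. The LD and DD ranges of this sum overlapped through 1 library, -Trp DD at 4 h, replicate 2, with 48351 FPKM. The shares overlapped more widely. In family level, -Trp DD libraries at 0.12, 0.065 and 0.013 lay above the lowest LD library, at 0.0042. In a bulk sample, fewer cells of a type and less RNA per cell cannot be told apart.

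**Figure D2:**
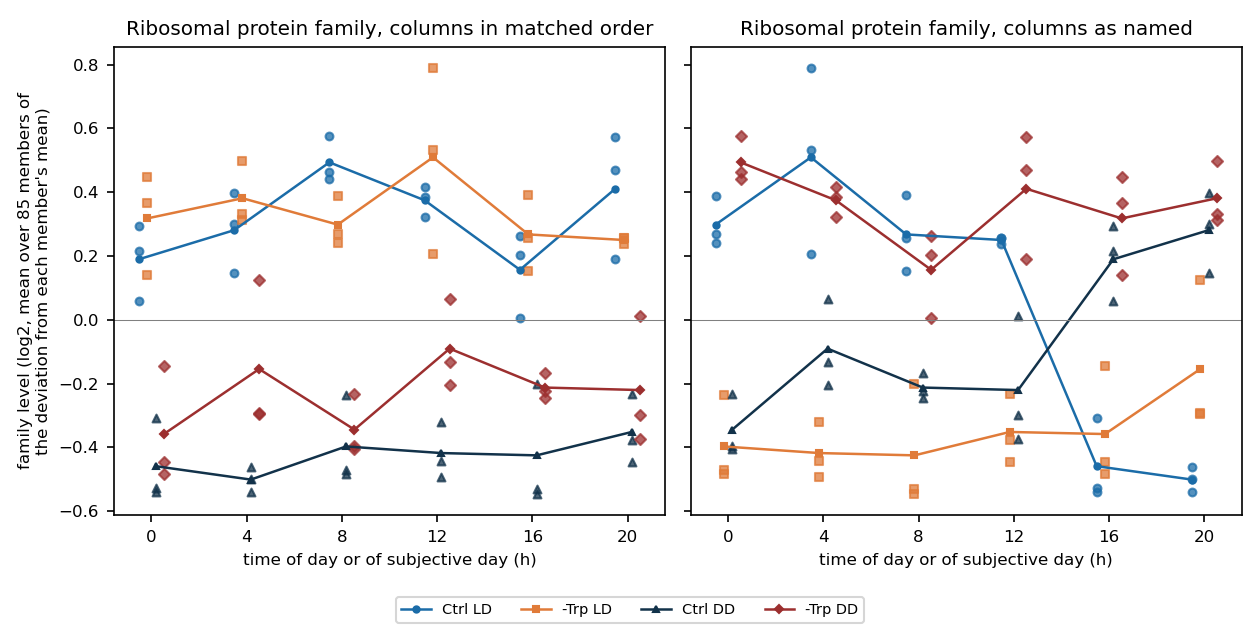
Family level of each library (points; log2 deviation averaged over 85 members) and mean of 3 libraries per time point (lines), by time in hours and group, in the matched order (left) and with the columns as named (right). In the matched order both LD groups lie at or above 0.0042 and both DD groups at or below 0.12, whereas as named both control groups change level after 12 h.

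On the control diet, members were higher in LD than in DD across all roles. Rplp2 ran from 631 FPKM to 1173 FPKM in Ctrl LD (median 909) and from 354 FPKM to 478 FPKM in Ctrl DD (median 436). The groups of 18 did not overlap. Its difference was 0.98 ± 0.05 on the log2 scale (SE, 1.97-fold, limma adjusted p = 3.70e-18). Rpl13, a 60S protein, ran from 495 FPKM to 817 FPKM in Ctrl LD (median 657) and from 248 FPKM to 387 FPKM in Ctrl DD (median 312), again with no overlap, and its difference was 0.998 ± 0.06. Rps10, a 40S protein near the mRNA entry, had a median of 805 FPKM in Ctrl LD and 401 FPKM in Ctrl DD, with a lowest LD library of 567 FPKM above the highest DD library of 467 FPKM. The difference of Rps10 was 0.84 ± 0.05 (adjusted p = 5.37e-17).

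By limma with Benjamini-Hochberg adjustment at 0.05, 84 of 85 members were higher in Ctrl LD than in Ctrl DD and none was lower, where 41.1% of the 14426 rows tested were higher. The median difference was 0.75 for the members (1.68-fold) and 0.02 for all rows. All libraries of Ctrl LD were above all of Ctrl DD in 78 of 88 members, and in 9.01% of all rows. By role, 30 of 31 genes of the 40S, 43 of 43 of the 60S, 3 of 3 of the stalk and 5 of 5 paralogues tested were higher, with medians of 0.74, 0.75, 0.98 and 0.70. The member with no call was Rps27 (0.72 ± 0.39, adjusted p = 0.0877). Rps15a, Rpl10 and Rps28 had the smallest called differences, at 0.33 ± 0.04, 0.46 ± 0.05 and 0.46 ± 0.05. Rpsa, the laminin receptor and 40S protein, differed by 0.84 ± 0.05, Rps6 by 0.68 ± 0.05 and Rpl41 by 0.86 ± 0.06. Rps19bp1, not a ribosomal protein, differed by 0.88 ± 0.06.

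On the -Trp diet the same comparison gave a larger value than on Ctrl in Rplp2 and smaller values in the other members tested. Rplp2 had 736 FPKM to 1278 FPKM in -Trp LD (median 904), 342 FPKM to 620 FPKM in -Trp DD (median 399.5), no overlap and a difference of 1.08 ± 0.06 (2.12-fold, adjusted p = 3.16e-16). Rps9, a 40S protein, ran from 631 FPKM to 966 FPKM in -Trp LD and from 378 FPKM to 569 FPKM in -Trp DD, without overlap, and differed by 0.66 ± 0.04. Rps3, which lines the mRNA entry of the 40S, differed by 0.62 ± 0.05. By limma, 84 of 85 members were higher in -Trp LD than in -Trp DD, where 41.7% of 14403 rows were higher. The median difference was 0.58 (1.499-fold) for the members and 0.02 for all rows. In 20 of 88 members all libraries of -Trp LD were above all of -Trp DD, and in 5.79% of all rows. Among these were Rplp2, Rpsa, Rpl41, Rps3 and Rps9. Rps27 again was not called (-0.05 ± 0.39, adjusted p = 0.912), and Rps15a (0.20 ± 0.03) and Rps28 (0.31 ± 0.06) had the smallest called differences.

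The light difference moved with the sum of FPKM over all rows, which was at least 403066 in 37 libraries and at most 353587 in 35. The higher range held all 36 LD libraries and the library -Trp DD at 4 h, replicate 2 (411944). The family level followed the summed FPKM of all other rows with r = 0.943 over 72 libraries, 0.681 over the 36 of LD and 0.692 over the 36 of DD, as a description over libraries that share the scaling. When each library was divided by its sum of FPKM in place of median-of-ratios scaling, the median of all rows moved to -0.32 on Ctrl and -0.28 on -Trp. The members' medians were then 0.37 and 0.24, with 80 and 73 members higher and, on -Trp, 1 lower (Rps15a, -0.13, adjusted p = 4.04e-05). Rps28 on -Trp turned to -0.03 under this scaling (adjusted p = 0.542). The share of all rows called under this scaling is not given. Whether RNA amount, library preparation or the light schedule set the higher range was not tested.

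**Figure D3:**
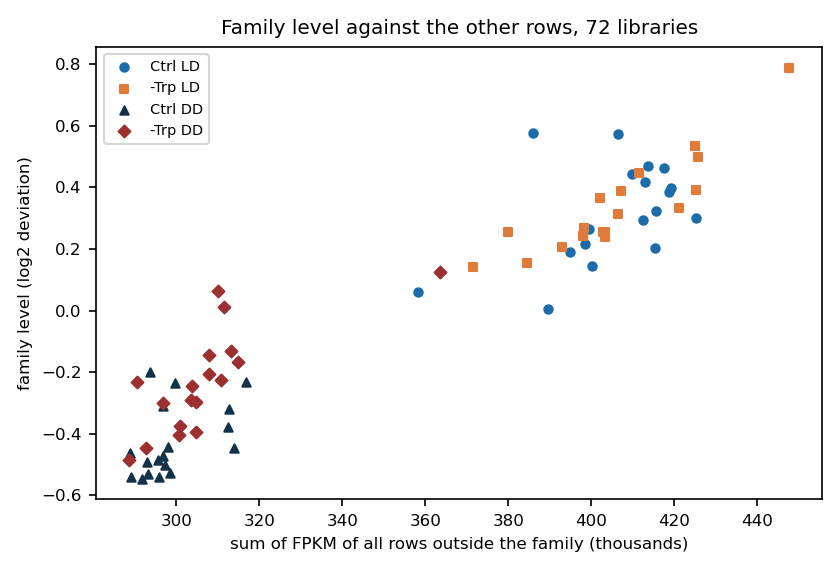
Family level (log2 deviation averaged over 85 members) against the sum of FPKM of all rows outside the family (axis in units of 1000 FPKM) for 72 libraries by group in the matched order. All LD libraries but no DD library other than 1 of -Trp DD, at a family level of 0.12, lie in the higher range of summed FPKM, the family levels of LD (at least 0.0042) and DD (at most 0.12) overlap in part, and r is 0.943 over all points.

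Short, abundant transcripts outside the family moved in the same direction. The members' median transcript length was 713 bases, against 2144 bases for all rows tested. Of 246 other rows tested with transcripts under 1000 bases and a mean of at least 100 FPKM, 229 were higher in Ctrl LD than in Ctrl DD, with a median of 0.74. On -Trp, 215 of 247 were higher, with a median of 0.62. Of the 77 mitochondrial ribosomal protein genes, whose products serve the separate ribosome of mitochondria, 75 were higher on each diet, with medians of 0.65 and 0.54. Within the family, the difference on Ctrl had a Pearson's r of -0.25 and a Spearman's rho of -0.34 with log2 length over 85 members. Its median was 0.82 over 29 members under 600 bases and 0.73 over 56 longer ones. The part of transcript length in these differences was not tested further.

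Other genes of the translation machinery were counted from fixed lists. Among ribosome subunits named outside the pattern, Fau (fused to a ubiquitin-like protein) and Gnb2l1 (the older symbol of the scaffold Rack1) were higher in LD on each diet, by 0.81 and 0.66 on Ctrl and by 0.64 and 0.53 on -Trp. Of 16 elongation factors and other TOP mRNAs, 15 were higher on Ctrl and 14 on -Trp, with medians of 0.48 and 0.43. Eef1a1, the abundant carrier of aminoacyl-tRNA, differed by 0.33 ± 0.04 on Ctrl. Of 27 genes of ribosome biogenesis, such as nucleolar proteins and RNA polymerase I subunits, 18 were higher and 6 lower on Ctrl, and 19 and 7 on -Trp, with medians of 0.16 and 0.21. Over all rows tested, 41.1% were higher on Ctrl and 41.7% on -Trp. The summed level of the biogenesis genes ran from 662 to 781 FPKM in Ctrl LD and from 497 to 593 FPKM in Ctrl DD. On -Trp the sums overlapped, from 682 to 857 FPKM in LD and from 511 to 687 FPKM in DD. Most biogenesis genes thus had the direction of the members, but some were called lower.

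Markers of cell types were counted in the same light comparisons, in which most rows were called. Of 14426 rows tested on Ctrl, 5922 were higher in LD and 5448 lower. On -Trp, 6006 of 14403 were higher and 5451 lower. The marker counts are a description beside these numbers. Of 8 oligodendrocyte markers, 7 were higher in LD on Ctrl and 8 on -Trp. On Ctrl their summed level ran from 1939 to 3425 FPKM in LD and from 1105 to 3345 FPKM in DD, and on -Trp from 1661 to 3276 FPKM and from 897 to 2227 FPKM. Of 6 microglial markers, 3 and 5 were higher, and their sums ran from 80.9 to 153 FPKM in LD and from 63.6 to 111 FPKM in DD. Of 6 pituitary hormone genes, 1 was higher and 3 lower on Ctrl, and 1 and 4 on -Trp. Their sums ran from 3.66 to 916 FPKM in LD and from 2.80 to 270 FPKM in DD. The median sums were lower in LD, at 18.9 FPKM on Ctrl and 11.7 FPKM on -Trp. In DD they were 185 FPKM on Ctrl and 81.7 FPKM on -Trp. Prl was at 0 in 17 libraries and Cga in 10. Of 11 SCN neuron markers, 5 were higher and 4 lower on Ctrl, and 1 and 5 on -Trp. The sums of these markers ran from 60.1 to 1039 FPKM in LD and from 45.2 to 811 FPKM in DD. Of 6 astrocyte markers 1 was higher and 2 lower on Ctrl and 1 and 1 on -Trp, of 5 endothelial markers 1 and 1 on Ctrl and 1 and 4 on -Trp, and of 4 ependymal markers 2 were higher on Ctrl. Of 6 rows of red blood cell genes none passed on Ctrl and 3 were lower on -Trp. All markers other than those of the pituitary were above 0 in all libraries. The part of cell composition in the members' differences was not tested.

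In constant darkness, members were slightly higher on the -Trp diet than on Ctrl. Rpl13 ran from 313 FPKM to 521 FPKM in -Trp DD (median 376) and from 248 FPKM to 387 FPKM in Ctrl DD (median 312). The ranges overlapped, and the difference was 0.31 ± 0.06 (1.24-fold, limma adjusted p = 0.00221). Rps12, a 40S protein, ran from 584 FPKM to 875 FPKM in -Trp DD and from 489 FPKM to 717 FPKM in Ctrl DD, and differed by 0.24 ± 0.05 (adjusted p = 0.00356). Rps27rt ran from 1119 FPKM to 1814 FPKM and from 915 FPKM to 1390 FPKM, with a difference of 0.29 ± 0.06 (adjusted p = 0.00512). In no member did the groups of 18 libraries lie apart, nor in any but 1 of the 24883 rows.

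By limma, 69 of 85 members were higher in -Trp DD and none was lower, where 7.25% of 14484 rows were higher. The median difference was 0.19 (1.14-fold) for the members and 0.01 for all rows, and 84 members had a value above 0. By role, 28 of 31 genes of the 40S, 35 of 43 of the 60S, 2 of 3 of the stalk and 2 of 5 paralogues tested were called. In the stalk, Rplp1 differed by 0.24 ± 0.06 (adjusted p = 0.0112) and Rplp0 by 0.14 ± 0.05 (0.0413). Rplp2 alone had a value below 0, at -0.05 ± 0.04 (0.394), and under scaling by the sum of FPKM it was called lower (-0.11, adjusted p = 0.0462). Rpsa differed by 0.22 ± 0.05, Rps6 by 0.19 ± 0.05 and Rpl41 by 0.22 ± 0.06. Among the members with no call were Rps4l (0.03 ± 0.07), Rps27l (0.12 ± 0.06), Rpl22l1 (0.23 ± 0.08), Rpl22 (0.10 ± 0.05) and Rps27, whose value was large but scattered (0.93 ± 0.40, adjusted p = 0.108).

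**Figure D4:**
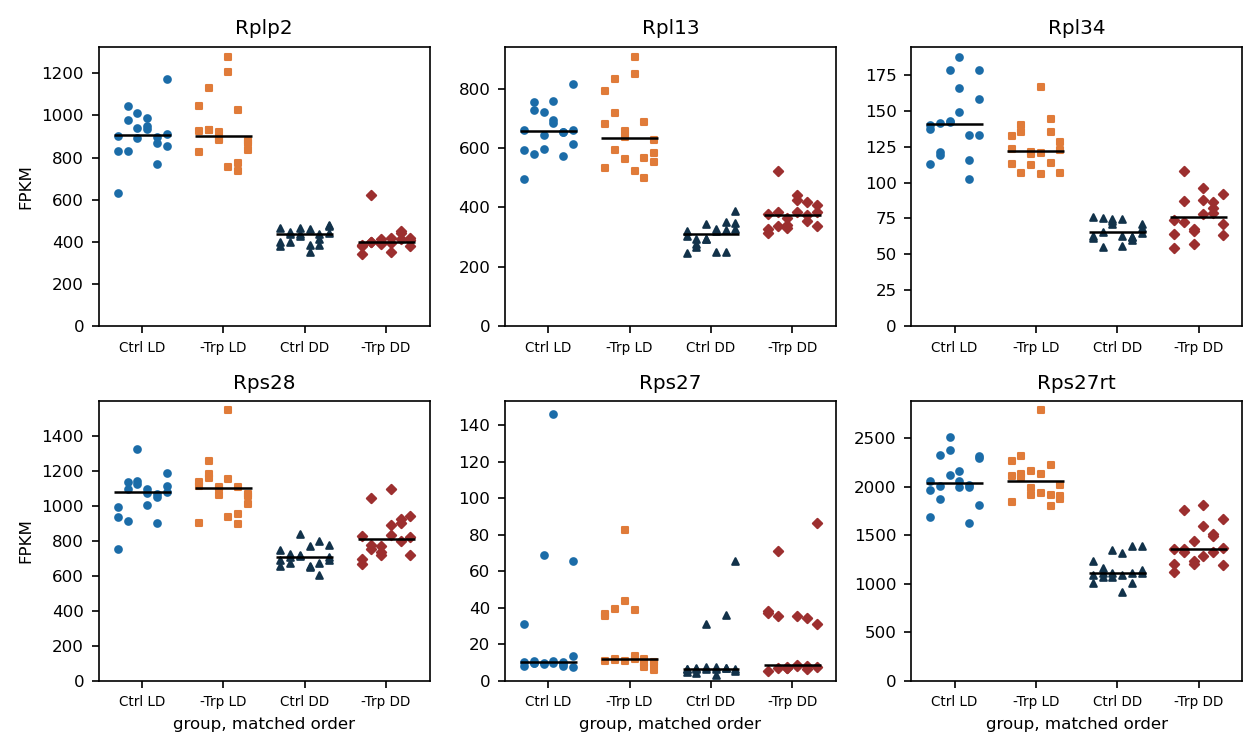
FPKM of 6 members in each library (points, placed from 0 to 20 h within a group) with the group median (line), by group in the matched order. Ctrl LD lies wholly above Ctrl DD in Rplp2, Rpl13, Rpl34 and Rps27rt and overlaps it in Rps28, on the -Trp diet the LD and DD points overlap in all but Rplp2, and Rps27 falls into separate ranges in every group.

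The diet difference in DD is given by time of day. The family mean was higher on -Trp by 0.10, 0.35, 0.05, 0.33, 0.21 and 0.13 at 0, 4, 8, 12, 16 and 20 h. At 4 and 12 h all 3 libraries of -Trp lay above all 3 of Ctrl. Of 85 members, 38 had a higher mean on -Trp at all 6 times, 33 at 5 and 11 at 4. Restricted to 8 to 20 h, an alternative chosen after seeing the data, 9 members were called. The median difference was then 0.19, beside 0.01 over all rows. Without -Trp DD at 4 h, replicate 2, the library in the higher range of summed FPKM, 57 members were called. Without -Trp DD at 12 h, replicate 3, the number was 46. Scaling by the sum of FPKM gave 48 members higher and 1 lower, with a median of 0.13, beside -0.04 over all rows. The share of all rows called is not given for these settings, so their counts cannot be set against it.

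Lists outside the family were counted in the same comparison. Of the subunits named outside the pattern that are reported here, Fau (0.23 ± 0.06) and Gnb2l1 (0.13 ± 0.04) were higher on -Trp. Of 16 elongation factors and other TOP mRNAs, 5 were higher and 1 lower, with Eef1a1 at 0.14 ± 0.05 (0.0387) and a median of 0.10. Of 27 biogenesis genes 3 were higher and 1 lower, and of 77 mitochondrial ribosomal protein genes 25 were higher, with a median of 0.13. Of 247 other short and abundant rows, 65 were higher and 5 lower, with a median of 0.12. Among cell markers, 2 of 6 rows of red blood cell genes were higher, with sums from 442 to 3830 FPKM in -Trp DD and from 202 to 1694 FPKM in Ctrl DD. Of 8 oligodendrocyte markers 2 were lower, of 6 astrocyte markers 1 was lower and of 6 microglial markers 1 was lower. None of the SCN neuron, endothelial, ependymal and pituitary markers was called. The part of blood or other cells in the members' difference was not tested.

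Members with a pyrimidine run at the annotated start were set beside the other tested members with a known promoter. The other members may carry a run at the start used in the SCN, so this split does not separate TOP mRNAs from the rest. The median diet difference in DD was 0.19 in both sets (14 and 50 members), and the median light difference on Ctrl was 0.74 and 0.75. Members that share 50% or more of their 100-base stretches with other genes had medians of 0.19 for diet in DD and 0.74 for light on Ctrl, beside 0.20 and 0.75 for the others.

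In LD, no member was called between diets, where 1.11% of 14202 rows were called in either direction. The median difference was 0.02 for the members and 0.0034 for all rows, and 1 member, Rpl34, had an unadjusted p-value under 0.05, beside 13.0% of rows. Rpl34, a 60S protein, ran from 106 FPKM to 166 FPKM in -Trp LD (median 122) and from 103 FPKM to 188 FPKM in Ctrl LD (median 141). Its difference was -0.16 ± 0.07 (limma adjusted p = 0.314). The next smallest p-values belonged to Rps27l (-0.11 ± 0.06), Rpl8 (0.12 ± 0.06), Rpl22 (-0.08 ± 0.04), Rps15 (0.13 ± 0.07) and Rpl3 (0.07 ± 0.05). The family mean was higher on -Trp at 4 of 6 times and lower by 0.20 at 8 h and by 0.16 at 20 h. Of the lists, 1 of 27 biogenesis genes was higher, 1 of 6 astrocyte markers was lower and 5 of 246 other short and abundant rows were higher.

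The difference between the diet effects in LD and DD was itself tested over all 72 libraries. By limma, 5 of 85 members had a smaller diet difference in LD than in DD, where 2.06% of 14425 rows did, and none a larger one. These were Rpl34 (-0.36 ± 0.10, adjusted p = 0.0176), Rpl13 (-0.31 ± 0.09, 0.0278), Rps16 (-0.28 ± 0.08, 0.0330), Rps27rt (-0.27 ± 0.08, 0.0358) and Rpl17 (-0.24 ± 0.08, 0.0457). At an unadjusted p-value under 0.05 the number was 51 of 85, beside 25.3% of all rows in either direction, and the median over the members was -0.17, against -0.01 over all rows. In Rpl17, a 60S protein at the exit tunnel, the medians on Ctrl and -Trp were 821 and 798 FPKM in LD, and 408 and 478 FPKM in DD. This comparison and the 4 before it share their libraries, so their counts do not add up as separate evidence.

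**Figure D5:**
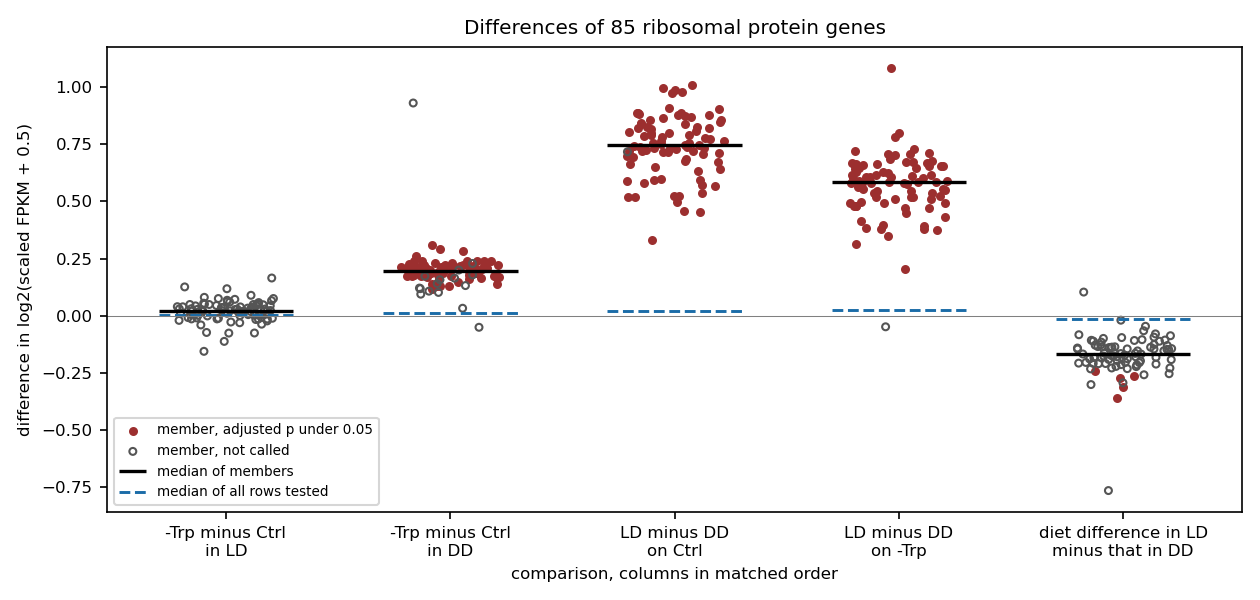
Differences in log2(scaled FPKM + 0.5) of 85 members (points) in 5 comparisons in the matched order. Filled points have a limma adjusted p under 0.05, black lines are the members' medians (0.02, 0.19, 0.75, 0.58 and -0.17) and dashed lines those of all rows tested. Rps27 is the open point at 0.93 in the second comparison, and Rplp2 the open point at -0.05.

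Daily rhythms were tested with JTK_CYCLE at a period of 24 h and an unadjusted p-value under 0.05. In the matched order 7 of 88 members passed on Ctrl and 2 on -Trp in LD, where 7.11% and 7.42% of 24883 rows did. In DD 2 passed on Ctrl and 1 on -Trp, where 4.92% and 1.42% of rows did. No member passed after Benjamini-Hochberg adjustment in any group, and a limma cosinor model called 5, 6, 3 and 2 members, in the same sequence of groups, at an unadjusted p-value under 0.05 and none after adjustment, beside 14.5%, 16.4%, 8.24% and 2.23% of rows at the unadjusted level. The 7 of Ctrl LD were Rpl15, Rpl26, Rps4l, Rpl4, Rpl7a, Rpl29 and Rps7, with their highest means at 4, 8 or 12 h. Rpl15 varied 1.17-fold between its highest mean (185 FPKM, 8 h) and its lowest (157 FPKM, 16 h). In -Trp LD, Rps15a varied 1.18-fold with its highest mean at 12 h, and Rps27 5.55-fold, which spans the separate ranges described above. Rps4x and Rpl5 passed in Ctrl DD, both highest at 20 h, and Rpl30 in -Trp DD.

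The hour of the highest mean was shared by many members. It was 8 h for 56 of 85 members on Ctrl and 12 h for 72 on -Trp in LD, and 20 h for 70 on Ctrl and 4 h for 53 on -Trp in DD. Since members vary together between libraries, 1 library can set that hour for most of them, and these numbers are a description. The median ratio of the highest to the lowest mean was 1.25, 1.24, 1.16 and 1.24. A difference in rhythm between diets was called in 0 members in LD (2 at an unadjusted p-value under 0.05, Rpl26 and Rpl30, beside 3.21% of rows) and in 0 in DD (3, with Rpl37rt, beside 6.84%), where limma called 0.0% of 14202 and 0.0345% of 14484 rows.

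With the columns as named, the light difference on -Trp took the opposite direction and the diet difference in DD the same one as in the matched order. Between diets in LD, 84 of 85 members were lower on -Trp, where 34.1% of rows were lower, with a median of -0.42. The family mean in LD was lower on -Trp by 0.60 to 0.93 from 0 to 12 h and higher by 0.10 at 16 h and 0.35 at 20 h, and the median difference of the members was -0.75 at 0 to 12 h alone. In DD 84 were higher on -Trp, where 37.2% of rows were higher, with a median of 0.43. Rplp2 had the smallest p-value in both, at -0.69 ± 0.10 in LD and 0.78 ± 0.09 in DD. Between light schedules no member was called on Ctrl (1 at an unadjusted p-value under 0.05, Rplp2, beside 31.9% of rows), where 5.65% of rows were called in either direction, and the median was 0.13. On -Trp, 84 were lower in LD, where 40.3% of rows were lower, with a median of -0.71, and in 11 of 88 members all libraries of LD lay below all of DD, as in 4.67% of rows. In these comparisons the higher and the lower range of summed FPKM are divided unevenly between the groups. With each library divided by its sum of FPKM, the medians were -0.17 between diets in LD (59 members lower), 0.19 in DD (70 higher, 1 lower) and -0.33 between light schedules on -Trp (81 lower, 1 higher), and Rps15a was the member called against the others in the last 2. The medians of all rows were then 0.21, -0.20 and 0.32, in the same sequence, and the share of all rows called is not given. Rps27 was the member with no call in all 3 comparisons with calls.

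As named, JTK_CYCLE called 84 of 88 members on Ctrl and 1 on -Trp in LD, where 37.8% and 2.48% of rows passed. In DD it called 5 on Ctrl and 8 on -Trp, where 27.6% and 6.68% of rows passed. After Benjamini-Hochberg adjustment the numbers were 82, 0, 3 and 0. The shares are over all 24883 rows, including those below the level filter. In Ctrl LD the cosinor model, run on the 14320 rows that passed the filter, called 85 of 85 members. It called 68.0% of those rows, both at an unadjusted p-value under 0.05. In Ctrl LD, 77 members had their highest mean at 4 h, and Rpl7l1, Rpl37 and Rps15a had the smallest p-values. The family level in Ctrl LD was between 0.25 and 0.51 from 0 to 12 h and between -0.50 and -0.46 at 16 and 20 h. This step falls where the matched order passes from -Trp LD to Ctrl DD.

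The libraries at 16 and 20 h as named have the same diet in both orders, so a diet comparison within them does not rest on the choice. In those from the tables labelled as darkness (0 and 4 h in LD in the matched order), no member was called, where 0.0% of 14218 rows were. Of the members, 9 of 85 had an unadjusted p-value under 0.05, all higher on -Trp, near the share of all rows (9.68%), and the median difference was 0.11. In those from the tables labelled as light (0 and 4 h in DD in the matched order), no member was called, where 0.0416% of 14432 rows were, 38 of 85 had an unadjusted p-value under 0.05, all higher, beside 16.7% of all rows, and the median was 0.21. Rps12 had the smallest p-value of the members there, at 0.31 ± 0.07 (adjusted p = 0.121). With 12 libraries each, these comparisons hold fewer libraries than the others.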

How the data were processed

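RNA of 72 SCN libraries (200 ng, stranded mRNA kit, paired reads of 100 bases) was processed by the authors with Trimmomatic, TopHat and Cufflinks on mm10, per the submitters' processing notes, with versions not given in the sources used here. The authors deposited FPKM in 4 tables. All columns were used. The name of the third 0 h column of the control table in light fits its group but no single label. It was kept in that group under the replicate number of the remaining label, 4. The replicate numbers were not taken as pairs in the main fits, and whether they mark pairs is not known. In the matched order, deviations of same-numbered libraries of both diets at the same time had a median r of 0.18 in DD and -0.0023 in LD.

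FPKM were scaled by median-of-ratios over 72 libraries and rows had to average at least 0.5 FPKM. Differences are on the log2(FPKM + 0.5) scale, which understates those of low genes. They were tested with limma 3.58.1 (R 4.3.3), time of day as a factor, over all rows, with Benjamini-Hochberg adjustment at 0.05. JTK_CYCLE was rewritten in Python 3.11.15, and its p-values equalled those printed with the paper in 1999 of 1999 and 135 of 135 rows at a relative tolerance of 0.0001. Both were tested on simulated data. No 2 libraries were duplicates (at most 0.0161% equal values above 0). Positions and transcripts are from GENCODE M21 and promoters from RefSeq. p-values measure the spread between libraries, each from another mouse.

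Named members are the 3 with the smallest p-value in each direction or group, the 3 highest and lowest, the stalk genes, Rpsa, Rps6, Rpl41, paralogues with their parents, Rps19bp1 and members called against the majority. Others were named after their values were seen. Some genes are not reported here. The members, lists and both orders were chosen with earlier results of these data known.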

Additional observations from a re-analysis of the deposited data

Results flagged for a closer look

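The diet difference of 5 members differed between LD and DD by limma's test of the difference itself, in the matched order. The values, the difference in LD minus that in DD on the log2 scale, were -0.36 for Rpl34, -0.31 for Rpl13, -0.28 for Rps16, -0.27 for Rps27rt and -0.24 for Rpl17. In LD their diet differences were, in the same sequence, -0.16, -0.0016, -0.04, 0.03 and -0.03, and none was called, whereas in DD all 5 were called higher on -Trp. The number of members called changed by more than 1.5 times in 23 of 72 settings that left out 1 library. It was 18 without -Trp LD 12 h replicate 3, Ctrl LD 16 h replicate 2 or Ctrl DD 16 h replicate 2, 15 without Ctrl DD 0 h replicate 1, 14 without -Trp DD 8 h replicate 3 or Ctrl DD 20 h replicate 1, and 11 without -Trp DD 20 h replicate 2 or -Trp DD 0 h replicate 2. It was 2 without -Trp DD 12 h replicate 3 or -Trp DD 20 h replicate 1.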

How the results depend on the processing

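Of 95 settings of the limma counts, 91 were within 1.5 times the number of members reported. The share of all rows called in each setting is not given, so these counts describe the members alone. In the matched order, the diet difference in DD fell to 9 members at 8 to 20 h alone (chosen after seeing the data). The diet by light difference gave 13 members with FPKM divided by the library sum, 3 with no filter on low values and 3 with the replicate block. The block takes each replicate number as a level shared over all times, so it does not model pairs within a time point. It leaves the library numbered 4 without a partner. The block gave 67 members for diet in DD and changed no other limma count by more than 1.5 times. Same-numbered libraries correlated above 0.1 in 12 of 18 pairs in DD and 4 of 17 in LD. Leaving out single libraries gave 46 to 76 members for diet in DD, 2 to 18 for diet by light and 84 to 85 for light on Ctrl. Of the JTK_CYCLE counts, 25 of 48 settings stayed within 1.5 times. With adjusted p-values they were 0 in all 4 groups, and as named 0 for -Trp LD, and 3 and 0 for Ctrl and -Trp in DD. With library sums they were 3 and 7 for Ctrl and -Trp in LD and 2 for -Trp DD, and with scaled FPKM 0 in Ctrl DD and, as named, 5 in -Trp DD. The cosinor model without and with the replicate block gave 6 and 5 for -Trp LD, 2 and 2 for -Trp DD, and 4 with the block for Ctrl LD. At the same unadjusted level 16.4% and 16.5%, 2.23% and 2.16%, and 13.6% of rows passed, in the same sequence. As named it gave 62 and 55 for Ctrl DD, where 59.96% and 57.83% of rows passed. For -Trp DD as named it gave 5 and 5, beside 13.3% and 13.5% of rows. For -Trp LD as named it gave 2 and 2, beside 4.30% and 4.08%. The share of rows is not given for the other JTK_CYCLE settings here. Leaving out single libraries gave 3 (without Ctrl LD 4 h replicate 2) to 18 (without Ctrl LD 20 h replicate 1) for Ctrl LD and 1 to 4 for -Trp LD. It gave 0 (without Ctrl DD 4 h replicate 3) to 10 (without Ctrl DD 16 h replicate 1) for Ctrl DD, 0 to 5 for -Trp DD, and as named 81 to 85, 0 to 1, 4 to 11 and 3 to 14. Of 10099 settings of 229 called values of named members, 9816 kept direction and call, 281 lost the call, and 2 turned, both with library sums: Rps28 between light schedules on -Trp (-0.030) and Rpl10 between diets in DD as named (-0.0040). Rps15a, whose light and DD differences are not among these values, was called in the opposite direction with library sums between light schedules on -Trp (-0.13, and as named 0.08) and between diets in DD as named (-0.12). The causes were not tested. FPKM give no depth, so low members such as Rpl39l cannot be given a counting error.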
